A study of Mus musculus with 9 samples.

Results

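The genes described here are the mouse genes whose symbol is Zfp followed by a number and which reached an FPKM (a fragment count scaled for transcript length and sequencing depth) of 5 or more in at least 1 of the 4 deposited columns, with 3 symbols left out by the rule. Of the 337 other symbols of this form among the 23235 genes of the table, 206 met the limit and 131 stayed below it in every column. The genes were thus chosen by the same FPKM that is compared below. A gene that reached 5 FPKM in only 1 column had to differ between columns, so levels, differences and counts are given as descriptions with no test.

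Most Zfp genes code for proteins with rows of zinc fingers, small folds in which cysteines and histidines hold a zinc ion and neighbouring fingers read neighbouring bases of DNA. Many of them start with a KRAB box, which recruits the corepressor Trim28 and, through it, the histone methyltransferase Setdb1. Such proteins are known for silencing retrotransposons and for guarding imprints in oocytes and early embryos. A smaller number of genes with this name code for ribosome factors, ubiquitin ligases, splicing factors or transcription activators, and share with the rest only the finger or the name.

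Total RNA was sequenced from mouse oocytes of day 21 after nucleus and cytoplasm had been parted by micromanipulation, with 10 nuclei or 10 cytoplasms in each sample and ribosomal RNA depleted. By the labels there are 9 libraries, 3 from nuclei of wild type (WT) and 2 each from WT cytoplasms, MTR4-null nuclei and MTR4-null cytoplasms. MTR4, coded by Skiv2l2, is an RNA helicase that unwinds RNA for the nuclear exosome. The labels name neither the driver of the deletion nor the number of animals, and the submitters' table holds 1 value per gene for each of the 4 groups, so there is no replicate spread, no SD and no p-value here, and the depth of single libraries is unknown. Because nuclei and cytoplasms were pooled, fewer cells with a transcript and less of it per cell cannot be told apart.

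Skiv2l2 stood at 16.2 FPKM in WT nuclei against 2.91 in MTR4-null nuclei, and at 21.6 in WT cytoplasm against 2.51 in MTR4-null cytoplasm, which is 17.97% and 11.6% of the WT values. The 12 oocyte markers checked, among them Gdf9 and the zona pellucida genes, were present in every column, with sums from 6506 to 10586 FPKM. The 16 markers of granulosa cells, the somatic cells around the oocyte, summed to 84.8 FPKM in WT nuclei, 61.0 in MTR4-null nuclei, 62.1 in WT cytoplasm and 48.0 in MTR4-null cytoplasm. Among them Inha was present in every column, from 11.9 to 21.4 FPKM, as was Nr5a2, from 12.4 to 19.0. Of the 14 that passed 1 FPKM, 4 were at least 2-fold higher and 4 lower in MTR4-null nuclei, and 0 and 2 in the cytoplasm. Over all genes at that limit 23.9% and 12.3% were so in the nucleus, and 15% and 21.4% in the cytoplasm. Cyp11a1 stood at 21.3 FPKM in WT nuclei against 1.47 in MTR4-null nuclei, and Hsd17b1 at 0.424 against 6.15. Fshr lay between 0.139 and 0.427 in all columns. Amh and Krt18 were listed at 0 in WT nuclei, and at 1.44 and 0.101 in MTR4-null nuclei. The 6 long RNAs known to stay in the nucleus summed to 216 FPKM in WT nuclei and 12.8 in WT cytoplasm, but to 189 and 77.7 in the MTR4-null columns, where Malat1 alone stood at 69.6 FPKM in the cytoplasm. What these differences in markers contribute to the results below was not tested.

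What the members share beyond their name is the finger itself. Of the 205 members matched to a transcript of the GENCODE M21 annotation, 9 held no match to the finger spacing searched, in which 2 to 4 residues part the cysteines and 3 to 5 the histidines. These were Zfp36, Zfp259, Zfp330, Zfp503, Zfp703, Zfp750, Zfp839, Zfp935 and Zfp957. The other members had up to 36 finger matches, the most in Zfp142, with a median of 9 over the 205. Among all words of 18 bases in the members' coding sequences, the word present in the most members was actggagagaaaccctat, from the linker between fingers, and the next was present in 23. It occurred in the coding sequence of 27 of 205 members (13.2%) and of 4 of 9357 other genes at 5 FPKM or more (0.0427%). A looser pattern of the linker, read in frame, was found in 136 members (66.3%), up to 15 times in Zfp420, against 75 of the other genes (0.802%). In 17 members 10% or more of the 100-base words of the transcript also occurred in another annotated gene. Under this annotation reads from there cannot be assigned to 1 gene. For some of them, such as Zfp935, Zfp708 and Zfp963, that gene overlaps their exons on the same strand. The shared words there can be the same bases of the genome and not a second copy. The 6 coding stretches below, each 1 finger of 81 bases with its linker in capitals, are shown for members that recur in the results: Zfp932, Zfp952, Zfp184 and Zfp383 were lower in MTR4-null cytoplasm, Zfp868 went opposite ways in the compartments, and Zfp872 was found almost only in MTR4-null nuclei. They are from GENCODE M21 transcripts (GRCm38), and bases are counted from the first base of the coding sequence.
Zfp932, bases 484 to 564: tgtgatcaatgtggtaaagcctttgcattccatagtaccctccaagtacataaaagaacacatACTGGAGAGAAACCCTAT
Zfp952, bases 1177 to 1257: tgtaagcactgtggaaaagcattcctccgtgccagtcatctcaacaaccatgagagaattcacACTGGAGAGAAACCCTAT
Zfp184, bases 607 to 687: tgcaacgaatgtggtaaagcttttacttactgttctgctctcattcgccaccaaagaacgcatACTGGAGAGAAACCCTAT
Zfp383, bases 979 to 1059: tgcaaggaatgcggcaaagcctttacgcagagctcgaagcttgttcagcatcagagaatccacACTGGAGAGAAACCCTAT
Zfp868, bases 970 to 1050: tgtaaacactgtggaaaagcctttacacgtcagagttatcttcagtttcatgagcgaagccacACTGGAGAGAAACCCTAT
Zfp872, bases 1174 to 1254: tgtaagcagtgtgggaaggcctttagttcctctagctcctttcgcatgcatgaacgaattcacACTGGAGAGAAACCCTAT
The stretches were picked for holding this exact linker, which the other 178 members lack, so only the bases before it, which code for the finger, can be compared between them.

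The promoters of 168 members, 213 windows of 300 bases from 250 bases before to 50 bases after a RefSeq start site (GRCm38.p6), were searched on both strands for 5 motifs. GGGCGG, the core of a GC box, was present in 47.4% of them, against 62.8% of the promoters of all genes at 5 FPKM or more and 35.7% of all promoters. CCAAT was present in 41.3%, 39.0% and 37.4% of these sets, CCGGAAG (an ETS core) in 23.5%, 19.1% and 8.86%, CGCATGCG in 4.69%, 4.34% and 1.87%, and TATAAA in 6.10%, 6.85% and 13.6%. The median number of CpG was 17 in members, 21 in the promoters of all genes at 5 FPKM or more and 7 in all promoters. Among members, GGGCGG was found in 33.3% of the promoters of genes with a KRAB box match and in 59.0% of the others, and CCAAT in 52.1% and 32.5%. The 4 promoters below belong to members that were at least 2-fold apart between genotypes in both compartments: Zfp622 and Zfp771 were higher in MTR4-null, Zfp735 and Zfp820 lower. Capitals mark GGGCGG or CCAAT on either strand.
Zfp622, chr15:25984116-25984415, plus strand: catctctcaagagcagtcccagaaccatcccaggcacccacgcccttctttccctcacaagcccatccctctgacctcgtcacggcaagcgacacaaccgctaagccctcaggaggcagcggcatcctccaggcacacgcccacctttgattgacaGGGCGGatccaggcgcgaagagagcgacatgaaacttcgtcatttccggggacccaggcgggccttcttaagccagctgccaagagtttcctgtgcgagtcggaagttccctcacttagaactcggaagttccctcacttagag
Zfp771, chr7:127244276-127244575, plus strand: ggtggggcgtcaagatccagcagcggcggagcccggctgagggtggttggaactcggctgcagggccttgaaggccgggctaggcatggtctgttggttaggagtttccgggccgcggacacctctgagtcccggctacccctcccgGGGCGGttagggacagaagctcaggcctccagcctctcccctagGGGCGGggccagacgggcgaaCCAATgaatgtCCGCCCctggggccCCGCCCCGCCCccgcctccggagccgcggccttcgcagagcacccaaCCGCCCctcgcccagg
Zfp735, chr11:73688528-73688827, plus strand: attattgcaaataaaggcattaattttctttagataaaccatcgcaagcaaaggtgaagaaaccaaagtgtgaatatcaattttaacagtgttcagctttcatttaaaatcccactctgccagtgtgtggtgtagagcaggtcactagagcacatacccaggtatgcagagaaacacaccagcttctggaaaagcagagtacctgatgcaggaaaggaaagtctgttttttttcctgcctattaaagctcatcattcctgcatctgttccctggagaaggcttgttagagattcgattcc
Zfp820, chr17:21845710-21846009, minus strand: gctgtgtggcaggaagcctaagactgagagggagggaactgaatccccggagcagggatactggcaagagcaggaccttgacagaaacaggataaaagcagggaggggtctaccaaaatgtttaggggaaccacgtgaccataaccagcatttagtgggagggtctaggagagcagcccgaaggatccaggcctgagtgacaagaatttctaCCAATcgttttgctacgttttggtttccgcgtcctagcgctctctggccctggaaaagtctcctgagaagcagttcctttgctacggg
The first pair holds 17 and 25 CpG with 1 or more GC box cores, the second pair 2 and 9 CpG with none. A gene with several start sites counts with several promoters here. Of the 12 promoters of 9 members lower in both compartments, 2 held GGGCGG and 7 held CCAAT. Of the 50 promoters of 39 members higher in both, 23 and 18 did. By the nucleus alone the shares with GGGCGG were close. It was found in 10 of 22 promoters of 17 members lower there (45.5%) and in 41 of 87 promoters of 71 members higher (47.1%). CCAAT was found in 12 (54.5%) and 34 (39.1%).

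Zfp RNAs were moderate in level. Of the 206 members, 94 reached 5 FPKM in all 4 columns, 28 in 3, 51 in 2 and 33 in 1 column only. By column, 138 members were at 5 FPKM or more in WT nuclei, 179 in MTR4-null nuclei, 126 in WT cytoplasm and 152 in MTR4-null cytoplasm. As shares of members these are 67.0%, 86.9%, 61.2% and 73.8%, beside 80.4%, 89.7%, 76.3% and 77.6% of the 10303 genes under the same limit, so MTR4-null nuclei had the most in both sets. Of the members, 18 reached the limit there only, against 8, 3 and 4 in WT nuclei, WT cytoplasm and MTR4-null cytoplasm. The same was not counted over all genes, so these numbers have no background and are not read as a trait of the members. The median member stood at 7.11 FPKM in WT nuclei, 13.4 in MTR4-null nuclei, 7.45 in WT cytoplasm and 9.01 in MTR4-null cytoplasm. The 10303 genes had medians of 14.3, 18.4, 14.5 and 11.9 FPKM in the same order. Summed over members, FPKM came to 3238, 4270, 3151 and 2928. The columns differ in their totals over all genes, which were 854286, 880989, 416740 and 433013. As shares of the FPKM outside small RNA genes the members' sums were 0.896%, 1.04%, 0.788% and 1.11%. MTR4-null cytoplasm was thus lowest by sum and highest by share. Just inside the limit lay Zfp97, Zfp846, Zfp300, Zfp691 and Zfp943, with highest values from 5.10 to 5.30 FPKM. Just outside lay Zfp948, Zfp947, Zfp566, Zfp770 and Zfp329, from 4.63 to 4.97 FPKM.

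**Figure D1:**
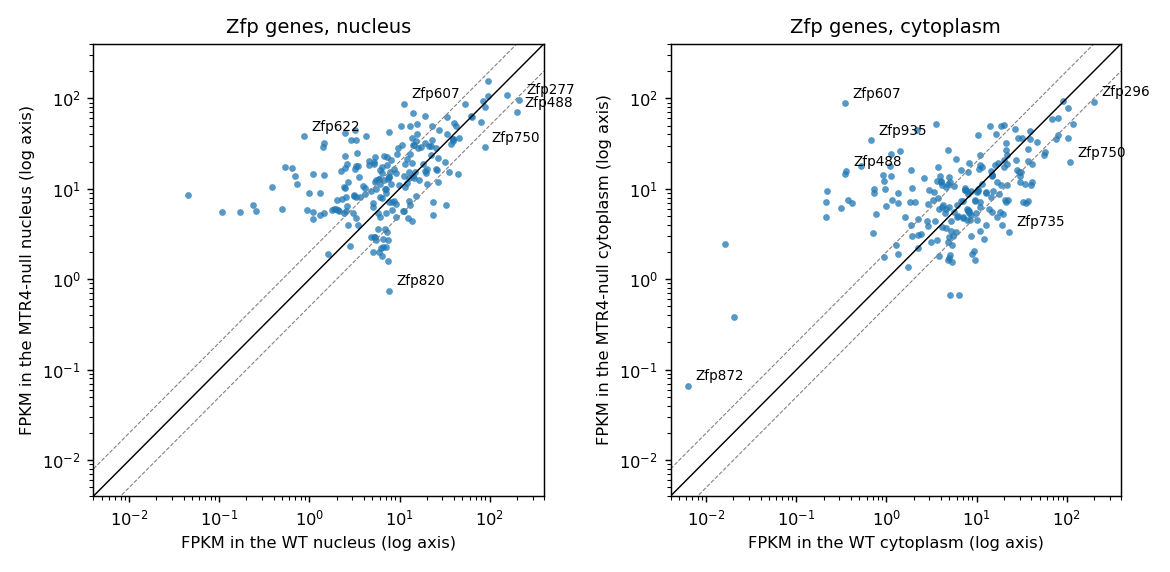
FPKM of the 206 Zfp genes in MTR4-null (vertical, log axis) against WT (horizontal, log axis), in the nucleus (left) and the cytoplasm (right); each point is 1 gene, the solid line marks equal values and the dashed lines a 2-fold ratio of FPKM. In the nucleus 141 of the 206 points lie above the line of equal values, and in the cytoplasm 105.

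Of the 8 most abundant members of WT nuclei, 6 were also among the 8 most abundant of WT cytoplasm. Zfp296, which is found in pluripotent cells and germ cells, stood at 155 FPKM in WT nuclei, 109.8 in MTR4-null nuclei, 203 in WT cytoplasm and 92.4 in MTR4-null cytoplasm. Its exons overlap Gemin7 on the other strand, and whether the libraries keep the strand is not given. Zfp655 stood at 89.5, 81.3, 117 and 51.6 FPKM in that order, and Zfp212 at 96.8, 157, 104 and 77.4. Both were highest in a different column, Zfp655 in WT cytoplasm and Zfp212 in MTR4-null nuclei. Zfp957 was the most even of the abundant genes, between 90.9 and 105 FPKM, followed by Zfp664, between 60.2 and 92.7. Zfp592, a partner of Zfp687 and Zfp532 in a complex with Zmynd8, stood at 104 FPKM in WT cytoplasm against 36.1 in MTR4-null cytoplasm. Zfp828, also called Champ1, a protein of chromosome alignment, stood at 80.6 against 39.3 there, and at 63.2 against 61.7 in the nucleus. Both were at least 2-fold apart between genotypes in the cytoplasm and under 2-fold in the nucleus.

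In the nucleus more Zfp genes were higher in MTR4-null than lower. On the log2(FPKM + 1) scale used for all differences, 85 of 206 members were higher by 2-fold or more in MTR4-null nuclei and 21 were lower by as much, and the median difference was 0.73. Over all 10303 genes that met the same limit, 25.1% were higher and 10.1% lower, with a median of 0.25, and among the wider set of 14270 genes with 1 FPKM or more, 23.9% and 12.3%. As shares of members the counts are 41.3% higher and 10.2% lower. The limit itself favours genes that are high in 1 column, so the 94 members at 5 FPKM or more in all 4 columns were counted apart: 21 (22.3%) were higher and 6 (6.38%) lower, beside 14.3% and 5.00% of the 6479 genes of that kind. After quantile normalization of the columns the members' counts were 61 higher and 34 lower. The shares over all genes after it are not given, so those above are no background to these counts. The median of all genes in this comparison was 0.21, and relative to it the members' median was 0.52.

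The largest nuclear difference was that of Zfp622, a factor in the late maturation of the large ribosomal subunit. It stood at 0.873 FPKM in WT nuclei and 38.01 in MTR4-null nuclei, and at 1.11 and 24.1 in the cytoplasm, so it was near 1 in both WT columns and above 20 in both MTR4-null columns. The log2 differences were 4.38 in the nucleus and 3.58 in the cytoplasm. Zfp623 followed with 1.46 FPKM against 32.3 in the nucleus and 2.63 against 13.1 in the cytoplasm. Zfp367 stood at 2.50 against 41.97 and at 2.19 against 44.7. The nuclear log2 differences of these genes were 3.76 and 3.62. Zfp771, whose promoter is printed above, stood at 0.530 against 17.6 and at 0.343 against 14.5 FPKM. Zfp395 reached 45.2 and 51.6 FPKM in the MTR4-null columns from 3.20 and 3.56 in WT. In all 5 genes both MTR4-null values lay above both WT values. The same order held for Zfp935, with 1.42 against 28.8 and 0.668 against 34.3 FPKM. However, 99.3% of its 100-base words are shared with other genes, most often Gm49359, whose exons overlap those of Zfp935 on the same strand. Which of these annotated genes its reads belong to is uncertain. Exons of Zfp367 overlap Gm47513 on the other strand.

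The members that were lower in MTR4-null nuclei included several KRAB box genes. Zfp820 stood at 7.67 FPKM in WT nuclei against 0.746, and at 5.03 against 0.676 in the cytoplasm, so that it was above 5 in both WT columns and below 1 in both MTR4-null columns. Zfp951 stood at 32.7 against 6.61 and 32.4 against 7.17, and Zfp735 at 23.7 against 5.19 and 22.8 against 3.37. The nuclear log2 differences were -2.31, -2.15 and -2.00, in that order, and the cytoplasmic ones -1.85, -2.03 and -2.44. Zfp750, known as a regulator of epidermal differentiation, was also lower in both compartments, with 88.1 FPKM in WT nuclei and 108 in WT cytoplasm, and 28.7 and 19.8 in MTR4-null. Zfp952 stood at 23.3 against 7.20 in the nucleus and 19.2 against 3.95 in the cytoplasm. Zfp825 differed in the nucleus, with 7.46 against 1.595 FPKM, whereas its cytoplasmic values were both low, at 1.72 and 1.38. It shares 10.2% of its 100-base words with other genes, most often Gm46430.

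**Figure D2:**
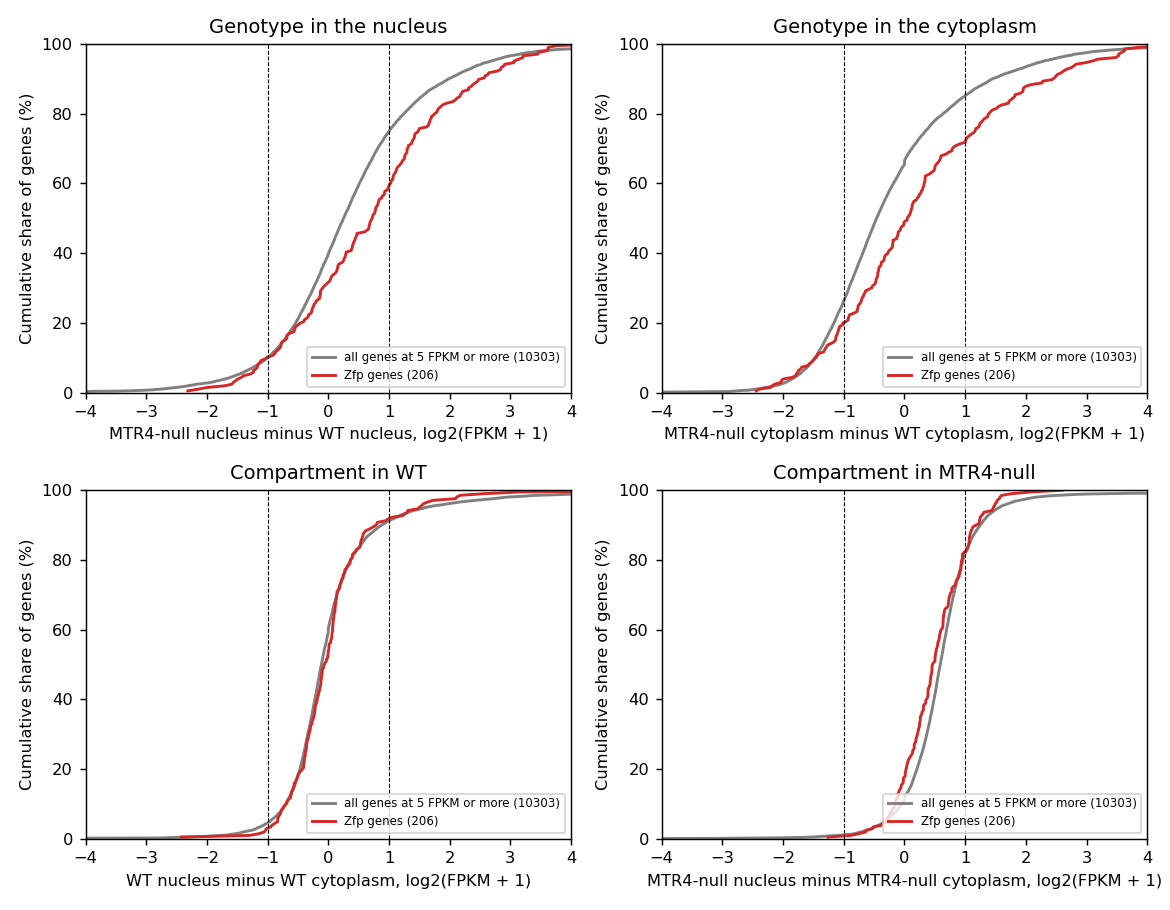
Cumulative share of genes (vertical, percent) by log2(FPKM + 1) difference (horizontal) in the 4 comparisons, for the 206 Zfp genes (red) and all 10303 genes at 5 FPKM or more in at least 1 column (grey); dashed lines mark a 2-fold difference. In both genotype comparisons the red curve runs to the right of the grey one over most of the range, with medians of 0.73 against 0.25 in the nucleus and 0.05 against -0.46 in the cytoplasm, while in the compartment comparisons the curves lie close together.

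In the cytoplasm the members were spread to both sides. Higher by 2-fold or more in MTR4-null were 59 of 206 members (28.6%), lower by as much were 41 (19.9%), and the median was 0.05. Over the 10303 genes under the same limit 14.8% were higher and 26.2% lower, with a median of -0.46, and among the wider set of 14270 genes 15% and 21.4%. The median of all genes kept was -0.26, and relative to it the members' median was 0.32. Centred on it, the counts were 64 higher and 28 lower members, and after rescaling the columns without small RNA genes 72 and 17. Both steps move all genes alike, and the shares over all genes after them are not given. The shares above, for the values as deposited, are thus no background to these counts. Of the 94 members at 5 FPKM or more in all columns, however, 10 were higher and 23 lower, with a median of -0.34, so the sign of the members' median depended on the limit. All 6479 genes of that kind had a median of -0.63, with 4.37% higher and 29.1% lower.

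Zfp607, also listed as Zfp607a, had the largest cytoplasmic difference. Its FPKM was 11.3 in WT nuclei, 87.6 in MTR4-null nuclei, 0.343 in WT cytoplasm and 88.6 in MTR4-null cytoplasm, so the gene was close to 0 in WT cytoplasm and level between the MTR4-null compartments. The log2 difference between genotypes was 6.06 in the cytoplasm and 2.84 in the nucleus. Zfp668 had the same pattern at a lower level, with 3.25, 18.1, 0.526 and 17.9 FPKM. Its exons overlap those of Zfp646 on the other strand, which stood at 7.71, 42.3, 10.4 and 39.3. Without strand, reads from the overlap itself cannot be assigned to 1 gene of the pair. Zfp12, a KRAB box gene, stood at 7.30, 18.3, 0.912 and 14.2 FPKM. These 3 genes shared a low WT cytoplasm and a WT nucleus at least 2-fold above it.

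The lowest cytoplasmic differences were those of Zfp735 (-2.44), Zfp750 (-2.39), Zfp616, Zfp383, Zfp438 and Zfp951 (-2.03). Zfp616, coded in a single exon with 18 finger matches, stood at 37.6 FPKM in WT cytoplasm against 7.34, and at 26.7 against 11.9 in the nucleus. Zfp383 stood at 35.3 against 7.004 in the cytoplasm but at 26.4 against 16.05 in the nucleus, where the difference of -0.68 stayed under 2-fold. Zfp438 stood at 6.35 against 0.673 in the cytoplasm and 6.41 against 1.83 in the nucleus.

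**Figure D3:**
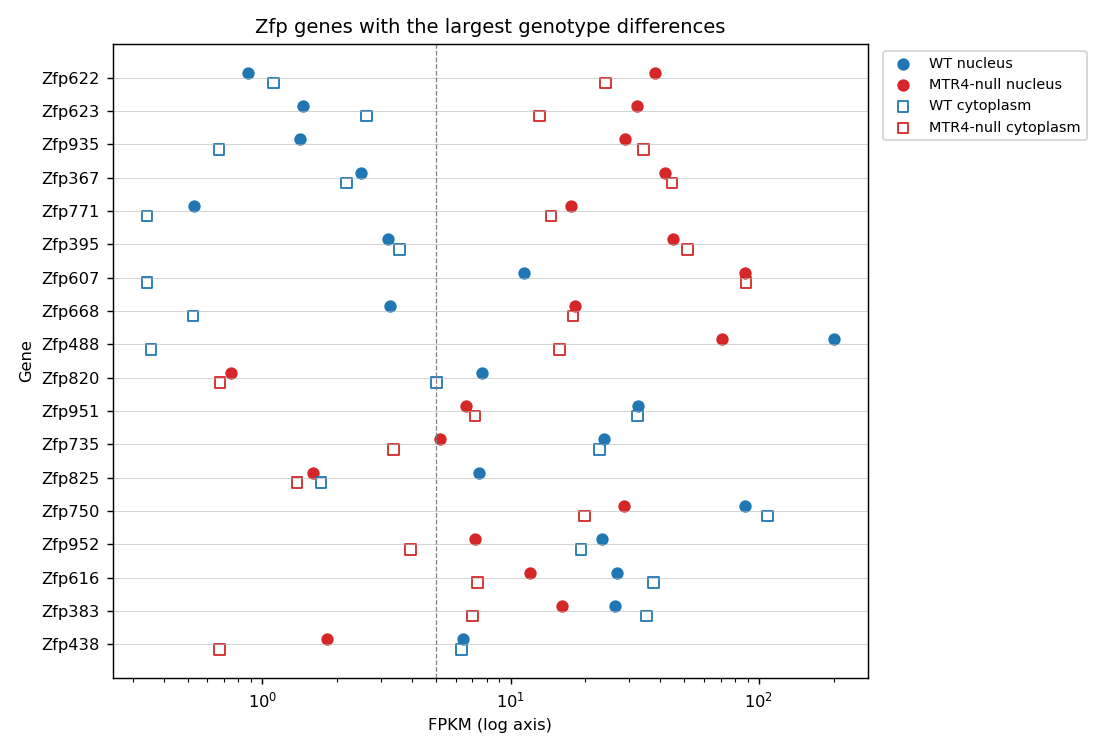
FPKM (horizontal, log axis) of the 18 Zfp genes with the largest genotype differences (rows), with circles for the nucleus and squares for the cytoplasm, WT in blue and MTR4-null in red; the dashed line marks the limit of 5 FPKM. From Zfp622 to Zfp668 both red symbols lie to the right of both blue ones, from Zfp820 down both red symbols lie to the left of both blue ones, and Zfp488 between them has its WT symbols at opposite ends.

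The genotype comparisons of nucleus and cytoplasm use different columns. Of the 85 members higher in the nucleus and the 59 higher in the cytoplasm, 47 were higher in both, which is 55.3% of the first list and 79.7% of the second. Among all 10303 genes under the same limit 1157 were higher in both, 44.8% and 75.7% of their lists. Of the 21 lower in the nucleus and the 41 lower in the cytoplasm, 12 were lower in both: Zfp820, Zfp951, Zfp735, Zfp750, Zfp952, Zfp932, Zfp930, Zfp438, Zfp944, Zfp184, Zfp68 and Zfp616. These are 57.1% and 29.3% of the members' lists, and the 617 of all genes lower in both are 59.4% and 22.8% of theirs. As shares of each whole set, 22.8% of members and 11.2% of all genes were higher in both, and 5.83% and 5.99% were lower in both. A further 37 were higher in the nucleus only, 10 higher in the cytoplasm only, 7 lower in the nucleus only and 28 lower in the cytoplasm only, and 62 were under 2-fold in both. Over all genes these classes held 13.3%, 2.80%, 3.27%, 19.7% and 42.3%, beside 17.96%, 4.85%, 3.40%, 13.6% and 30.1% of members. A KRAB box match was found in 9 of the 12 members lower in both and in 19 of the 47 higher in both. The transcripts of the 12 had a median GC content of 39.5%, with a highest value of 49.97%, and those of the 47 a median of 50.8%, from 37.0% to 68.7%.

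Zfp488, Zfp511 and Zfp868 were at least 2-fold apart in opposite directions. Zfp488, known from the differentiation of oligodendrocytes, stood at 200.3 FPKM in WT nuclei and 70.7 in MTR4-null nuclei, but at 0.356 in WT cytoplasm and 15.7 in MTR4-null cytoplasm. Zfp511 stood at 2.62, 18.9, 18.4 and 5.55 in the same order of columns, and Zfp868 at 6.62, 2.80, 1.62 and 4.90. For Zfp488 and Zfp868 the nuclear value was lower and the cytoplasmic value higher in MTR4-null, and for Zfp511 the reverse held. Exons of Zfp511 overlap Tubgcp2 on the other strand, and Zfp488 shares 6.35% of its 100-base words with other genes, most often 4930533N22Rik.

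**Figure D4:**
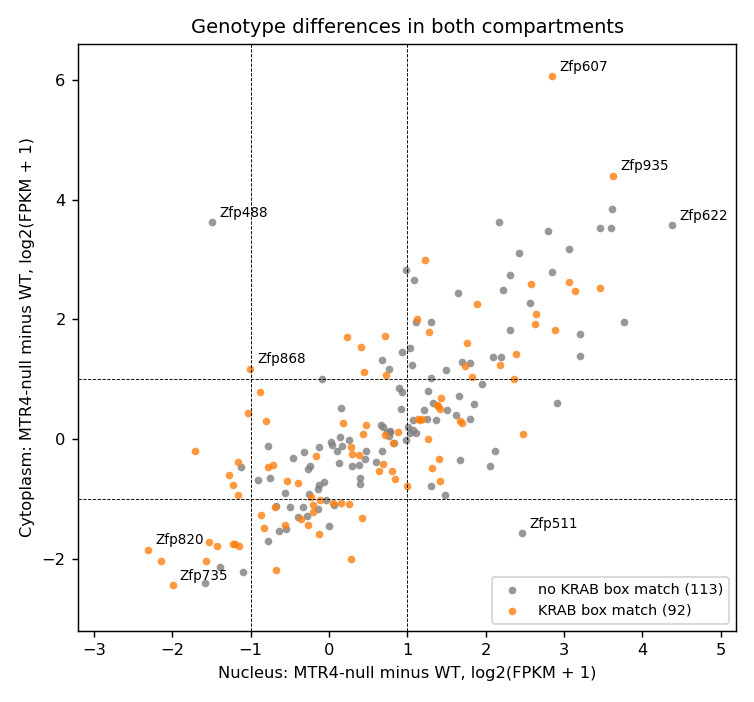
Log2(FPKM + 1) difference between MTR4-null and WT in the cytoplasm (vertical) against that in the nucleus (horizontal), for 205 Zfp genes, in orange those with a KRAB box match (92) and in grey those without (113); dashed lines mark 2-fold. The 47 genes in the upper right corner are higher in MTR4-null in both compartments and the 12 in the lower left corner lower in both, 9 of the latter in orange.

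Members with known roles in RNA and ribosome biology went in different directions. Apart from Zfp622, Zfp346, which binds structured double-stranded RNA, was at least 2-fold higher in MTR4-null nuclei (20.4 FPKM against 4.53), and stood at 8.01 against 3.77 in the cytoplasm. Zfp598, the ubiquitin ligase that marks collided ribosomes, stood at 61.5, 64.2, 76.7 and 35.4 FPKM, which is even in the nucleus and at least 2-fold lower in MTR4-null cytoplasm. Zfp207, a spindle and splicing protein, had that pattern too, with 45.6, 36.1, 57.7 and 25.7 FPKM. Zfp106, an RNA-binding protein of nerve and muscle, lay between 17.5 and 23.8 FPKM in all columns, and the splicing factor Zfp830 between 9.46 and 20.04. Zfp36, which binds AU-rich elements and promotes decay of the mRNAs that carry them, was the 1 member at least 2-fold lower in the nucleus than in the cytoplasm of MTR4-null, with 1.89 against 5.93 FPKM, and stood at 1.597 and 3.81 in WT. The ligases Zfp91 (ubiquitin) and Zfp451 (SUMO) stood at 26.5, 21.97, 29.6 and 15.2, and at 31.6, 19.9, 34.3 and 11.2 FPKM. Both had their lowest value in MTR4-null cytoplasm.

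Of the 24 listed transcription factor genes that passed 1 FPKM, 20 are members. In the nucleus 8 of the 24 were at least 2-fold higher and 2 lower, and in the cytoplasm 6 and 2, with medians of 0.77 and 0.36. Of the 14270 genes at 1 FPKM or more, 23.9% were higher and 12.3% lower in the nucleus, and 15% and 21.4% in the cytoplasm. Zfp217, a corepressor subunit known as an oncogene in breast cancer, stood at 19.2 FPKM in WT nuclei against 64.6 and at 19.96 against 50.3 in the cytoplasm. Zfp292 stood at 0.496 against 5.95 and 0.418 against 6.99, and Zfp503, a repressor of limb and striatal development, at 0.253 against 5.72 and 0.219 against 9.47. All 3 were higher in MTR4-null in both compartments. Zfp687, partner of Zfp592, stood at 15.7 against 51.6 in the nucleus and 27.03 against 45.4 in the cytoplasm. Zfp532, from the same complex, stood at 22.4 against 29.8 and 27.8 against 16.2. The 3 partners thus had nuclear differences of 1.66, 0.40 and -0.55 for Zfp687, Zfp532 and Zfp592. Zfp410, which activates the remodeller gene Chd4, stood at 6.74 against 22.8 in the nucleus and 7.42 against 10.1 in the cytoplasm, while Chd4 itself stood at 94.7 against 86.0 and 95.2 against 50.1 FPKM. Zfp516, a factor of brown fat, stood at 2.02 against 7.53 in the nucleus, and Zfp644, a partner of Ehmt2, at 6.64 against 16.2 in the cytoplasm. The pluripotency factor Zfp281 stood at 4.16, 8.81, 2.93 and 9.74 FPKM. Zfp143, which activates many housekeeping promoters, stood at 25.1, 16.7, 21.6 and 11.1, highest in WT nuclei. Zfp161 (Zbtb14) had 9.13, 4.91, 4.12 and 3.76, and the neuronal repressor Zfp238 (Zbtb18) 16.1, 28.4, 21.5 and 23.8. Of the other factors Zfp148, Zfp335, Zfp384, Zfp423 and Zfp703, none was 2-fold apart between genotypes, with nuclear differences from -0.91 (Zfp423) to 0.89 (Zfp384) and cytoplasmic ones from -0.68 to 0.85.

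The 5 members known as repressors of repeats or imprinted genes split. Zfp809, which silences proviruses of murine leukemia virus, stood at 2.51 FPKM in WT nuclei against 16.97 and at 3.28 against 7.60 in the cytoplasm, higher in MTR4-null in both. Zfp568, which represses a placental transcript of Igf2, stood at 10.6 against 30.4 and 10.9 against 18.2. Zfp445, a keeper of imprints, stood at 9.20 against 14.9 and 10.9 against 7.22, under 2-fold in both compartments. Zfp932, which binds endogenous retroviruses, went the other way, with 44.3 against 14.7 and 41.02 against 11.8 FPKM, and differences of -1.53 and -1.71. It shares 26.9% of its 100-base words with other genes, most often Gm15446. Zfp708 had 1.10, 4.63, 4.16 and 6.32 FPKM, but 100% of its 100-base words occur in other genes, most often Gm28557. Exons of Gm28557 overlap those of Zfp708 on the same strand, so the value of Zfp708 is uncertain.

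The proteins through which a KRAB box acts were read from a list of 26 genes that pass 1 FPKM. In the nucleus 5 were at least 2-fold higher and 3 lower in MTR4-null (median 0.19), and in the cytoplasm 3 and 7 (median -0.71). The shares over all 14270 genes at that limit were 23.9% higher and 12.3% lower in the nucleus (median 0.21). In the cytoplasm they were 15% and 21.4% (median -0.26). Trim28 stood at 108 FPKM in WT nuclei, 236 in MTR4-null nuclei, 120.1 in WT cytoplasm and 161 in MTR4-null cytoplasm, and Setdb1 at 70.9, 126, 100.9 and 88.8. Mta2, of the NuRD complex, had the largest difference, with 0.360 against 27.3 FPKM in the nucleus and 2.73 against 30.0 in the cytoplasm. Ehmt2, a histone methyltransferase, stood at 3.42 against 16.04 and 3.69 against 8.77, and the histone chaperone Daxx at 15.95 against 47.0 and 19.6 against 36.3. The methyltransferases Suv39h2 and Dnmt3a were lower in MTR4-null, Suv39h2 at 28.2 against 10.6 in the nucleus and 30.9 against 8.53 in the cytoplasm, and Dnmt3a at 47.8 against 21.004 and 47.7 against 15.2. Mphosph8, of the HUSH complex, stood at 57.2 against 26.2 and 49.6 against 20.1 FPKM.

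A KRAB box match, found by a letter pattern, was used to group the members. How many KRAB boxes the pattern missed was not checked, so members without a match may still hold one. Zfp192 (Zkscan8), for example, had no match. Over the 10303 genes under the same limit 25.1% were higher and 10.1% lower in the nucleus, and 14.8% and 26.2% in the cytoplasm. Of the 92 with a match, 34 were higher (37.0%) and 16 lower (17.4%) in MTR4-null nuclei. In the cytoplasm 25 were higher and 25 lower (27.2% each), so the share lower was close to that of all genes. Of the 113 without, 51 were higher (45.1%) and 5 lower (4.42%) in the nucleus, and 34 and 16 in the cytoplasm. The groups also differed in GC content, with transcript medians of 43.2% and 51.2%. By the number of finger matches the nuclear counts were 11 higher and 2 lower of 25 members with 0 to 2 fingers, 36 and 8 of 81 with 3 to 9, and 38 and 11 of 99 with 10 or more. The 27 members that hold the 18-base linker counted 7 higher (25.9%, close to all genes) and 6 lower (22.2%) in the nucleus. In the cytoplasm they counted 3 higher (11.1%) and 10 lower (37.0%). The 178 without it counted 78 and 15, and 56 and 31. The linker holders had a median GC content of 40.6% against 48.9%, and 25 of the 27 had a KRAB box match. What GC content contributes to these counts was not tested.

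Along GC content the members' counts were ordered. In the lowest of 3 classes of about equal size (transcripts at 33.8% to 43.6% GC) 19 of 69 members were higher (27.5%) and 14 lower (20.3%) in MTR4-null nuclei, in the middle class 32 of 67 (47.8%) and 7 (10.4%), and in the highest class 34 of 69 (49.3%) and 0. All genes at 5 FPKM or more, divided at the same GC limits, had 12.7%, 19.2% and 31.4% higher and 14.5%, 10.7% and 6.34% lower. Members had a larger share of higher genes than all genes in each GC class, and the order of the classes was the same in both sets. Across the 205 members, Spearman's rho of GC content with the difference was 0.30 in the nucleus and 0.23 in the cytoplasm, as a description of genes that share libraries. Members had a median of 5 exons, against 9 in all genes at 5 FPKM or more. Where all genes at 5 FPKM or more had 50.8%, 32.1%, 26.8% and 18.3% higher in the nucleus for 1 to 2, 3 to 4, 5 to 6 and 7 or more exons, members had 26.3%, 44.6%, 45.8% and 37.7%, so they did not follow that order. The first of these classes holds 19 members. By mean level the lowest, middle and highest class of members, again about equal in size, had 51.5%, 45.6% and 27.5% higher in the nucleus, and all genes divided at the same levels 41.2%, 28.3% and 14.1%.

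**Figure D5:**
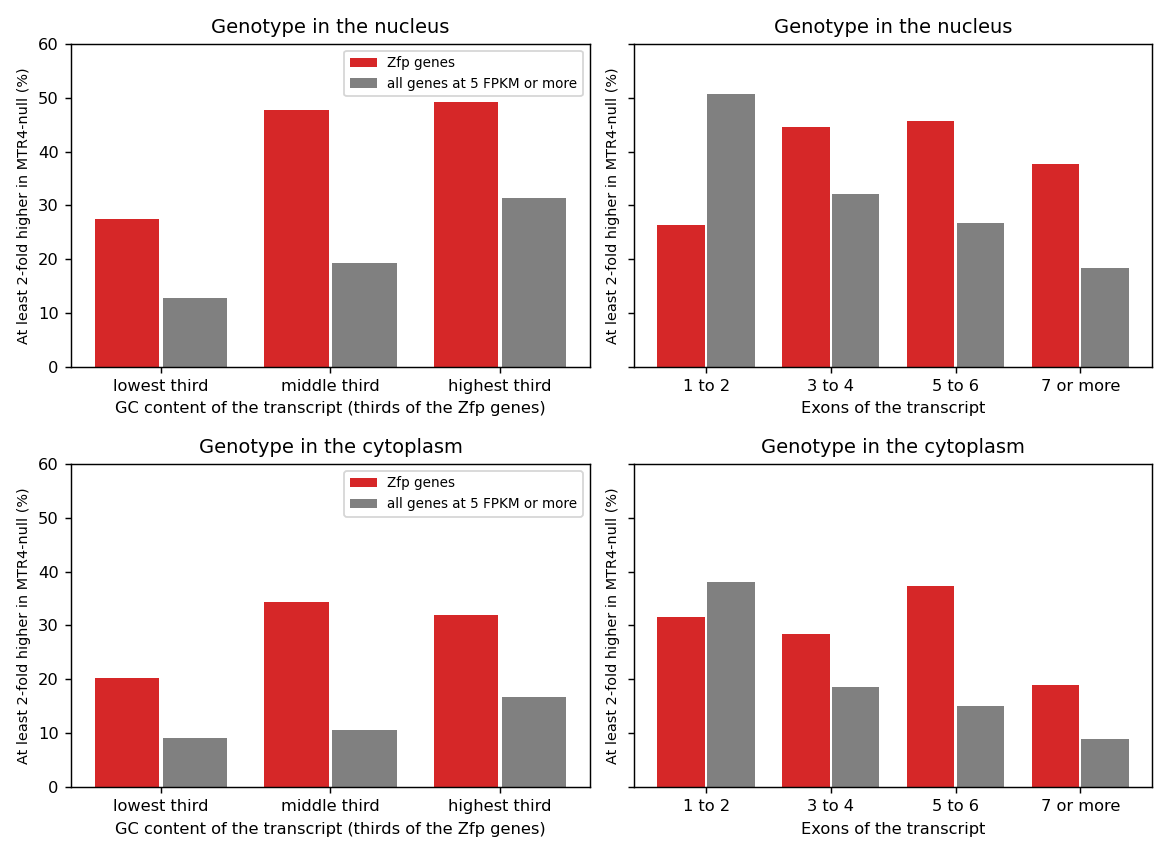
Share of genes at least 2-fold higher in MTR4-null (vertical, percent) by GC content of the transcript (left, classes with about equal numbers of Zfp genes) and by number of exons (right), in the nucleus (top) and the cytoplasm (bottom), for Zfp genes (red) and all genes at 5 FPKM or more in at least 1 column (grey). In the nucleus the share was 27.5%, 47.8% and 49.3% in Zfp genes and 12.7%, 19.2% and 31.4% in all genes from low to high GC, and only in the class of 1 to 2 exons did the grey bar stand above the red one.

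Many Zfp genes lie in clusters, where duplication has left rows of related copies. Chromosome 7 holds 49 of the members, chromosomes 8 and 17 hold 21 each and chromosome 5 holds 14, by the annotation of GRCm38. On chromosome 7, 25 members were higher (51.0%) and 1 lower (2.04%) in MTR4-null nuclei, and 14 (28.6%) and 10 (20.4%) in the cytoplasm. On chromosome 17, 6 were higher (28.6%) and 5 lower (23.8%) in the nucleus, and 2 (9.52%) and 10 (47.6%) in the cytoplasm. The transcripts of the members had a median GC content of 50.7% on chromosome 7 and 38.7% on chromosome 17. The part of GC content in this contrast was not tested. Over all members the shares higher and lower were 41.3% and 10.2% in the nucleus, and 28.6% and 19.9% in the cytoplasm. Over the 10303 genes under the same limit they were 25.1% and 10.1%, and 14.8% and 26.2%. Among the chromosomes counted, the share higher in the nucleus ran from 20% of 10 members on chromosome 2 to 63.6% of 11 on chromosomes 6 and 13. A run is a row of protein-coding genes with Zfp names and no other protein-coding gene between them, and it may include genes that are not members. Of the 198 members whose annotated name has the Zfp form, 79 shared a run with another member, and 5 runs held 4 or more members. In the run of Zfp229, Zfp820, Zfp942 and Zfp943 on chromosome 17 all 4 genes were at least 2-fold lower in MTR4-null cytoplasm, with differences from -2.00 to -1.13, while nuclear differences ran from -2.31 to 0.28. Zfp942 differed there by compartment: it stood at 6.40 and 7.97 FPKM in the nuclei and at 9.49 and 1.62 in the cytoplasms. In the run of Zfp868, Zfp964, Zfp869 and Zfp963 on chromosome 8, neighbours went apart: Zfp869 stood at 2.25 against 15.95 FPKM in the nucleus and Zfp868 at 6.62 against 2.80. In the run of 8 members from Zfp180 to Zfp94 on chromosome 7, 3 were higher and 0 lower in the nucleus, and 2 higher and 2 lower in the cytoplasm.

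Between the compartments of WT oocytes, most members were alike. At least 2-fold higher in the nucleus were 17 of 206 members (8.25%) and lower 6 (2.91%), with a median of -0.06, beside 8.75% and 4.57% of the 10303 genes and 12.4% and 4.71% of the 14270. Rescaling without small RNA genes gave 19 and 3 members with a median of 0.05, and quantile normalization 13 and 15 with a median of -0.16. Shares over all genes after these scalings are not given. The largest nuclear excess was that of Zfp488 (7.21 on the log2 scale), followed by Zfp607 (3.20), Zfp300 (2.59), Zfp277, Zfp12 and Zfp937. Zfp277, the member with the highest single value, stood at 213 FPKM in WT nuclei and 46.3 in WT cytoplasm, and at 97.2 and 33.1 in MTR4-null. It was thus above its cytoplasm in both genotypes. Zfp300 stood at 5.14 against 0.0203 FPKM in WT, and Zfp937 at 11.3 against 1.89. Lower in WT nuclei were Zfp511 (-2.42), Zfp708, Zfp192, Zfp936, Zfp110 and Zfp97. Zfp192 (Zkscan8) stood at 4.28 FPKM in WT nuclei against 10.7 in WT cytoplasm, but at 38.6 against 16.8 in MTR4-null. Zfp936, with 3.60 against 8.56, and Zfp110, with 4.79 against 10.9, are KRAB box genes. Zfp97 shares 66.0% of its 100-base words with other genes, most often Zfp960, and its difference was -1.02.

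In MTR4-null oocytes, as deposited, more members were higher in the nucleus. At least 2-fold higher there were 37 of 206 members (17.96%) and lower 1 (0.485%), with a median of 0.47, but this direction did not hold under rescaling. Centred on 0.52, the median over all genes, 7 members were higher and 7 lower, with a median of -0.05, while rescaling without small RNA genes gave 5 and 7 with -0.10, and quantile normalization 7 and 8 with -0.14. As deposited, the shares of members were close to those of the 10303 genes under the same limit, 18.2% higher and 1.13% lower. Over the 14270 genes the shares were 17% and 1.84%. Zfp872 differed most, with 5.50 FPKM in MTR4-null nuclei and 0.0669 in MTR4-null cytoplasm, and with 0.168 and 0.00633 in WT. It thus passed 5 FPKM in a single column, and its exons overlap 1810064F22Rik on the other strand. Zfp523 stood at 16.6 against 4.90 and Zfp330 at 28.2 against 8.88 FPKM. At the other end, Zfp51 stood at 2.73 against 5.88, Zfp146 at 5.72 against 10.3, and Zfp963 at 4.03 against 6.25. Zfp963 shares 37.96% of its 100-base words with other genes, most often Gm20422, whose exons overlap those of Zfp963 on the same strand. The comparisons of compartments share their columns with those of genotypes, so their values are given side by side and were not correlated.

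Other zinc finger families were counted in the same way, at 5 FPKM or more in at least 1 column. Over all 10303 genes at that limit 25.1% were higher and 10.1% lower in MTR4-null nuclei, and 14.8% and 26.2% in the cytoplasm. Of 27 Zbtb genes, whose fingers follow a BTB domain, 14 were at least 2-fold higher and 0 lower in MTR4-null nuclei (median 1.02), and 11 and 0 in the cytoplasm (median 0.45). Of 7 Zkscan genes, 1 was higher and 0 lower in the nucleus, and 1 and 4 in the cytoplasm. Of 8 Klf genes, the nuclear count was 4 higher and 1 lower, and 2 and 1 in the cytoplasm. Among 13 Zc3h genes, which bind RNA, the nuclear count was 3 higher and 1 lower, and 3 and 3 in the cytoplasm. Whether any of these families differs from the Zfp genes was not tested.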

How the data were processed

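Total RNA of 9 libraries was measured in 4 groups, and the authors deposited 1 FPKM value per gene and group (unnamed last row, the column sum, left out). Per the submitters' processing notes, TopHat2 2.1.1, Cufflinks 2.2.1 and the build mm9 were used; settings are not given in the sources used here. Depth per library is unknown, and since no column belongs to a single library the limma test planned could not be run.

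Differences were computed on log2(FPKM + 1) with pandas 2.3.3 and numpy 2.4.6 under Python 3.11.15 and counted at 2-fold; the counting was tested on simulated data. The background is every gene at 5 (or 1) FPKM or more in at least 1 column. Transcript features are from GENCODE M21, matched by symbol for 205 members, 9 of them through a synonym. Finger and KRAB box matches are letter patterns in the translated coding sequence, the latter within the first 300 residues. Alternatives were a pseudocount of 0.1, 3 scalings and 3 limits of level. Named genes are the 6 largest differences each way per comparison, the 8 most abundant per WT compartment, members with known roles and those nearest the limit, with neighbours and others added after their values were seen. The members and gene lists were chosen with earlier results of these data known.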

Additional observations from a re-analysis of the deposited data

Results flagged for a closer look

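Zfp488, Zfp511 and Zfp868 drew attention because the genotype difference had opposite signs in nucleus and cytoplasm and was at least 2-fold in both. On the log2(FPKM + 1) scale, MTR4-null minus WT, Zfp488 differed by -1.49 in the nucleus and 3.62 in the cytoplasm, Zfp511 by 2.46 and -1.57, and Zfp868 by -1.01 and 1.17. The difference between the compartments was not tested, since each group is a single deposited column.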

How the results depend on the processing

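No paired analysis was possible because the table holds 1 column per group, and leaving out a replicate could not be run for the same reason. The other settings, and one chosen after seeing the data (without the 17 members that share 10% or more of their 100-base words), gave 96 values for the 12 counts and medians, of which 55 stayed within 1.5 times the count reported or 0.1 of the median. The cause of the other changes was not tested. The scalings move all genes, and shares over all genes after them are not given. All scalings and limits kept the members' nuclear genotype median above 0: 0.52 centred on all genes, 0.55 rescaled without small RNA genes, 0.38 after quantile normalization, 0.61 over all Zfp symbols at 1 FPKM or more, and 0.39 over members at 5 FPKM or more in all 4 columns. The number lower in the MTR4-null nucleus was 34 after quantile normalization, 11 among members at 10 FPKM or more and 6 at 5 FPKM in all columns, where 21 were higher. For genotype in the cytoplasm the median was 0.32 centred, 0.58 rescaled (17 lower), 0.21 after quantile normalization, and reversed to -0.34 with 10 higher and 23 lower members at 5 FPKM in all columns. For compartment in WT the number lower was 14 with a pseudocount of 0.1, 3 rescaled, 15 after quantile normalization, 3 at 10 FPKM and 11 over all symbols (28 higher), and 0 at 5 FPKM in all columns (4 higher). Its median was 0.0499 rescaled (reversed), -0.16 after quantile normalization and -0.17 at 5 FPKM in all columns. For compartment in MTR4-null the median reversed to -0.0547 centred (7 higher, 7 lower), -0.10 rescaled (5 and 7) and -0.14 after quantile normalization (7 and 8). The number lower there was 2 with a pseudocount of 0.1 and 2 over all symbols, 0 at 10 FPKM and 0 at 5 FPKM in all columns, with 14 higher in the last. Of 452 alternative values for the 113 differences of named members, 383 stayed the same, 69 moved and 0 reversed.

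Library depth is not known, so counting error at low FPKM cannot be given, and a pseudocount of 1 shrinks the differences of low genes. The number of libraries behind each column is uncertain. Coordinates and transcript features come from GRCm38, whereas the processing notes name mm9. Exons of 57 members overlap another gene.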
